A study of Mus musculus with 10 samples.

Results

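The receptors and ligands of the Notch pathway, together with the fringe gene *Lfng*, were followed in mouse embryos with a deletion of *Wwc2*, a gene of the WWC family of Hippo pathway regulators. The 10 members, *Notch1*, *Notch2*, *Notch3*, *Notch4*, *Dll1*, *Dll3*, *Dll4*, *Jag1*, *Jag2* and *Lfng*, were found by gene symbol among 24302 genes, and each had a value in every comparison. The RNA came from whole C57BL/6 embryos isolated at embryonic day 11.5, of which 3 were wildtype (*Wwc2* +/+), 3 heterozygous (*Zp3-Cre-Wwc2* KO/+) and 4 homozygous KO (*Zp3-Cre-Wwc2* KO/KO). *Zp3-Cre* acts in growing oocytes, so that the cross deletes *Wwc2* of maternal and zygotic origin in all tissues and not in one cell type. The study describes the KO embryos as smaller and less developed than their controls, so genotype and stage of development cannot be told apart in these RNA levels. In RNA of whole embryos, fewer cells of a type and less RNA per cell cannot be told apart either.

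Notch receptors are single-pass membrane proteins that are activated by ligands on neighbouring cells. Binding exposes the receptor to cleavage by ADAM proteases and then by the gamma-secretase complex, and the released intracellular domain joins RBPJ and Mastermind-like proteins in the nucleus, where it switches on genes of the Hes and Hey families. In the embryo the pathway is known for arterial identity and the choice of sprouting tip cells in vessels, for the segmentation clock of the presomitic mesoderm, and for keeping neural progenitors undifferentiated.

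The values are mean normalized counts, that is, reads per gene after DESeq2 had corrected the embryos for sequencing depth, and they sum to 2.56e+07 per embryo over all genes. Values of single embryos were not used here. The mean of each genotype was therefore derived from the mean over all 10 embryos and the 2 deposited log2 fold changes, with a 95% interval from the standard errors, which share 1 estimate of the spread over all genotypes. A gene was called at an adjusted p under 0.05. *Wwc2* itself had derived means of 1971, 1860 and 2421 normalized counts in wildtype, heterozygous and KO embryos (KO versus wildtype log2 fold change 0.30, standard error 0.17, DESeq2 adjusted p = 0.176), and this count over the whole gene does not check the genotypes. The study genotyped embryos by PCR and reports a Western blot in which KO embryos of this stage lacked WWC2 protein.

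Upstream sequences are shown for *Dll4* and *Notch2*, which were called in KO embryos, and for *Lfng*, the only member whose window matched the RBPJ motif. They were taken from RefSeq promoter windows of GRCm38.p6, which run from 250 bases before to 50 bases after a gene's start, and only the bases before the start in both RefSeq and GENCODE are printed. The window of *Jag2* lies inside the longer GENCODE gene and is not printed. Capitals mark matches, on either strand, to the GC box GGGCGG, to the RBPJ motif TGGGAA or to the hypoxia response motif ACGTG. The *Dll4* sequence spans chr2:119325534-119325783 on the plus strand, that of *Notch2* chr3:98013288-98013526 on the plus strand, and that of *Lfng* chr5:140607091-140607319 on the plus strand.
Dll4: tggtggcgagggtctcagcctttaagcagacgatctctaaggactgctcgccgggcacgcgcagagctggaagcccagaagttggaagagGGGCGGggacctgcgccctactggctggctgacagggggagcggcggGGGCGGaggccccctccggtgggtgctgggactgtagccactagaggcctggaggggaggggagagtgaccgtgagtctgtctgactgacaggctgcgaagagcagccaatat
Notch2: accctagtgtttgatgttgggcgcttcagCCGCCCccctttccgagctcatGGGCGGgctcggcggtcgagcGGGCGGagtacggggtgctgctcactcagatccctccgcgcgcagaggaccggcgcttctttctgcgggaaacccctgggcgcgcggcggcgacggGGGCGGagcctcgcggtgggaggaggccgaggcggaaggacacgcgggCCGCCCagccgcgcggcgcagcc
Lfng: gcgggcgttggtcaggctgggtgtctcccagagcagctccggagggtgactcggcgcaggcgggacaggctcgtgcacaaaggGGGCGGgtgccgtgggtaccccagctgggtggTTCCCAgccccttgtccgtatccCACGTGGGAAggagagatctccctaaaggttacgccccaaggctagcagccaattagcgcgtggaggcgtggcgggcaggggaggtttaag
All 10 members matched RefSeq windows, 11 in number because *Dll1* has 2. The RBPJ motif was found in 1 of these 11 and in 25.6% of all 32851 windows. *Lfng* held it at positions -135 and -108 from its start, the latter match overlapping a hypoxia response motif. The hypoxia response motif was found in the windows of *Lfng* and *Notch3*, 2 of 11, and in 19.6% of all windows. The TEAD motif GGAATG was found in 3 of 11, those of *Dll3*, *Notch1* and *Notch4*, and in 14.7% of all. The TATA box TATAAA was found in 0 of 11 and in 13.6% of all. GC boxes were found in 7 of 11 and in 35.7% of all windows. *Dll4*, *Jag2* and *Notch2* held GC boxes (2, 5 and 7 matches) and none of the other 4 motifs. The *Jag2* window was 86% G and C, that of *Notch2* 73% and that of *Dll4* 63.7%, against a median of 52.7% over all windows. These matches describe letters in the windows and not binding.

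In KO embryos the ligands *Dll4* and *Jag2* were higher than in wildtype embryos and the receptor *Notch2* was lower, while the other 7 members were not called. Thus 2 of 10 members were higher, against 15.6% of all tested genes, and 1 of 10 was lower, against 10.2%. In all, 3 of 10 were called and 25.8% of the 17477 tested genes (4508), a share near that of the members. The median log2 fold change of the 10 members was 0.21 and that of all tested genes 0.02. When each genotype was scaled by its sum of normalized counts, which lowers every KO versus wildtype log2 fold change by 0.25, the same number of members was called in each direction, whereas the share of called genes that were higher went from 60.4% (2721 higher, 1787 lower) to 20.99% (1437 higher, 5409 lower) over all genes. These p-values use the normal distribution. When the same statistics were read against a t distribution with 7 degrees of freedom, none of the 10 members and 0 genes in all were called, while 7103 genes of the deposited DESeq2 table had unadjusted p-values under 0.05. Since that setting called no gene at all, it cannot tell the members from other genes.

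**Figure D1:**
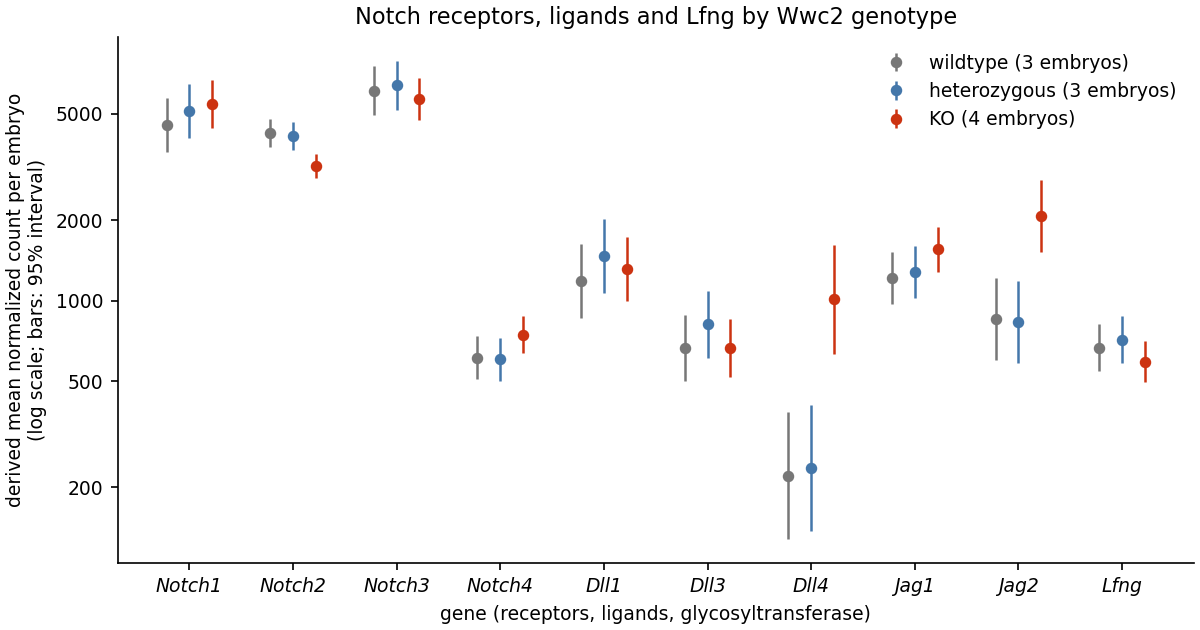
Derived mean normalized count per embryo (log scale) of the 10 members in wildtype, heterozygous and KO embryos, with points for genotype means and bars for 95% intervals. The KO intervals of *Dll4* and *Jag2* lie above those of both other genotypes, and that of *Notch2* lies below them.

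Among the receptors, *Notch2*, which is widely expressed and is known for roles in the vessel wall, heart, kidney and liver, is encoded on chromosome 3 (98013527 to 98150361, plus strand, GRCm38, in 34 merged exons). Its derived mean was 4240 normalized counts in wildtype embryos (95% interval 3761 to 4781), 4133 in heterozygous embryos (3665 to 4660) and 3186 in KO embryos (2871 to 3536). The KO interval did not overlap either of the other intervals, which covered nearly the same range. The level in KO embryos was 0.751 times that in wildtype embryos, a log2 fold change of -0.41 with a standard error of 0.12 and a 95% interval of -0.64 to -0.18 (DESeq2 adjusted p = 0.00584). *Notch2* was also the member with the smallest spread between embryos, as 1 estimate shared by all genotypes, and the coefficient of variation implied by the standard errors was 10.5%. An unclassified transcript, *Gm42820*, shares 5.02% of the exon bases of *Notch2* on the same strand and had no value of its own in the tables.

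*Notch1*, the receptor that is required for embryonic vessel remodelling and segmentation (chromosome 2, 26457903 to 26516663, minus strand), had derived means of 4543 normalized counts in wildtype embryos (3591 to 5746), 5125 in heterozygous embryos (4052 to 6482) and 5446 in KO embryos (4444 to 6675). The 3 intervals overlapped, and the KO versus wildtype log2 fold change of 0.26 (-0.19 to 0.71) did not pass the test (DESeq2 adjusted p = 0.388). *Notch3*, the receptor of vascular smooth muscle and pericytes and also present in neural progenitors (chromosome 17, 32120820 to 32166852, minus strand), had 6095 in wildtype (4935 to 7527), 6407 in heterozygous (5187 to 7912) and 5690 in KO embryos (4739 to 6831). Its log2 fold change was -0.10 (-0.50 to 0.30, DESeq2 adjusted p = 0.739), again with overlapping intervals. *Notch4*, the receptor found mainly in endothelium (chromosome 17, 34564268 to 34588503, plus strand), had 612 in wildtype (508 to 738), 603 in heterozygous (500 to 726) and 746 in KO embryos (635 to 876), a log2 fold change of 0.28 (-0.07 to 0.64, DESeq2 adjusted p = 0.224). For these 3 receptors the data allow changes up to the ends of the intervals and do not show equal levels. Transcripts on the opposite strand share 7.5% of the exon bases of *Notch1* (*0610009E02Rik*) and 6.03% of those of *Notch3* (*Gm17276*).

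Among the ligands, *Dll4*, the endothelial ligand that restrains sprouting and is required for arteries in a dose-dependent way, lies on chromosome 2 (119325784 to 119335962, plus strand, 11 merged exons). It had 221 normalized counts in wildtype embryos (128 to 382), 236 in heterozygous embryos (137 to 407) and 1011 in KO embryos (632 to 1615). The KO interval lay above those of both other genotypes, which were nearly the same. The level in KO embryos was 4.57-fold that in wildtype embryos, a log2 fold change of 2.19 with a standard error of 0.53 and a 95% interval of 1.15 to 3.23 (DESeq2 adjusted p = 0.00114). *Dll4* was the lowest member in wildtype embryos and also the most variable. Its implied coefficient of variation between embryos, 1 estimate shared by all genotypes, was 47.7%. The median over 2749 genes of like mean was 18.3%, and 96.5% of them had a smaller one. The transcript *Gm14207* on the opposite strand shares 5.56% of the exon bases of *Dll4*. Its means were 7.22, 7.74 and 30.5 normalized counts in wildtype, heterozygous and KO embryos (log2 fold change 2.08, DESeq2 adjusted p = 0.0139). The study's methods name a directional kit, the labels name the kit without that word, and the strand setting of the counting is not given in the sources used here, so reads of both genes may not have been told apart.

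*Jag2*, a ligand known from limb, palate and thymus development and also found in vessels, lies on chromosome 12 (112907819 to 112929776, minus strand, 24 merged exons). Its derived means were 855 normalized counts in wildtype (599 to 1220), 831 in heterozygous (582 to 1185) and 2075 in KO embryos (1527 to 2821). The KO interval lay above both others. The level in KO embryos was 2.43-fold that in wildtype embryos, a log2 fold change of 1.28 with a standard error of 0.35 and a 95% interval of 0.60 to 1.96 (DESeq2 adjusted p = 0.00380). The implied coefficient of variation of *Jag2*, 31.2%, was the second highest of the members, and 93.4% of the 3299 genes of like mean had a smaller one. No other gene shared exon bases with *Jag2* in the annotation.

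*Jag1*, the ligand of smooth muscle, the outflow tract and the inner ear (chromosome 2, 137081456 to 137116644, minus strand), had 1214 normalized counts in wildtype (972 to 1517), 1282 in heterozygous (1027 to 1602) and 1557 in KO embryos (1285 to 1886). Its intervals overlapped, with a log2 fold change of 0.36 (-0.07 to 0.78, DESeq2 adjusted p = 0.196). *Dll1*, the ligand of somites and neurogenesis (chromosome 17, 15367354 to 15376872, minus strand), had 1184 in wildtype (861 to 1628), 1470 in heterozygous (1069 to 2021) and 1313 in KO embryos (997 to 1731). The log2 fold change was 0.15 (-0.46 to 0.76, DESeq2 adjusted p = 0.739), and it was -0.10 after scaling by the summed counts. A long noncoding RNA on the opposite strand, *A930024N18Rik*, shares 20.5% of the exon bases of *Dll1*. *Dll3*, a divergent ligand that is known to inhibit Notch within the cell during segmentation (chromosome 7, 28293553 to 28302238, minus strand), had 665 in wildtype (499 to 885), 814 in heterozygous (612 to 1084) and 665 in KO embryos (519 to 853). Its log2 fold change was 0.00 (-0.55 to 0.55, DESeq2 adjusted p = 0.997) and -0.25 after the same scaling.

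*Lfng*, the glycosyltransferase that elongates O-fucose on Notch, alters the response to each kind of ligand and cycles in the segmentation clock (chromosome 5, 140607320 to 140615545, plus strand), had 667 normalized counts in wildtype (545 to 818), 715 in heterozygous (584 to 875) and 590 in KO embryos (494 to 703). The 3 intervals overlapped. The KO versus wildtype log2 fold change was -0.18 (-0.57 to 0.21, DESeq2 adjusted p = 0.506).

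In heterozygous versus wildtype embryos 0 of 10 members were called by DESeq2, against 2 genes or 0.00968% of the 20653 tested, and at an unadjusted p under 0.05 these numbers were 0 members and 75 genes. The log2 fold changes ran from -0.04 for *Jag2* to 0.31 for *Dll1*, with a median of 0.09 for the members and -0.01 for all genes. For *Dll4* the log2 fold change was 0.09, but its interval of -1.02 to 1.21 was wide. That of *Notch2*, -0.28 to 0.21, was the narrowest of the members. The smallest unadjusted p among the members was 0.325, for *Dll3* with a log2 fold change of 0.29. Over all genes the DESeq2 statistics of this comparison had a standard deviation of 0.503, narrower than the standard normal distribution they are read against. The standard errors share 1 estimate of the spread over all genotypes, KO included, so the lack of calls does not show equal levels.

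KO versus heterozygous embryos were compared with a Wald test built from the deposited fold changes and standard errors, and this comparison shares the KO embryos with that of KO versus wildtype. Here too *Dll4* and *Jag2* were higher and *Notch2* lower. The log2 fold change of *Dll4* was 2.10 (1.06 to 3.13, Benjamini-Hochberg adjusted p = 0.00176 over all DESeq2-tested genes). That of *Jag2* was 1.32 (0.64 to 1.999, adjusted p = 0.00258 in the same test on DESeq2 values) and that of *Notch2* was -0.38 (-0.60 to -0.15, adjusted p = 0.0111 in the same test on DESeq2 values). The count of 2 members higher stands beside 16.7% of all genes and that of 1 lower beside 10.7%, in all 27.4% (4780 genes). The other 7 members had log2 fold changes between -0.29 for *Dll3* and 0.31 for *Notch4*, and the members' median was -0.04 against 0.04 for all genes. After scaling by the summed counts, *Lfng* was also called lower (log2 fold change -0.53, adjusted p = 0.0217 on DESeq2 values), *Notch1* went from 0.09 to -0.17, and the share of called genes that were higher fell from 60.9% to 21.8%. None of the 10 members was called with the t distribution, which called no gene at all here. None was called with both deposited standard errors added in quadrature either. That sum overlooks that both deposited comparisons share the wildtype embryos, so it overstates the standard error and does not test the members' calls.

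**Figure D2:**
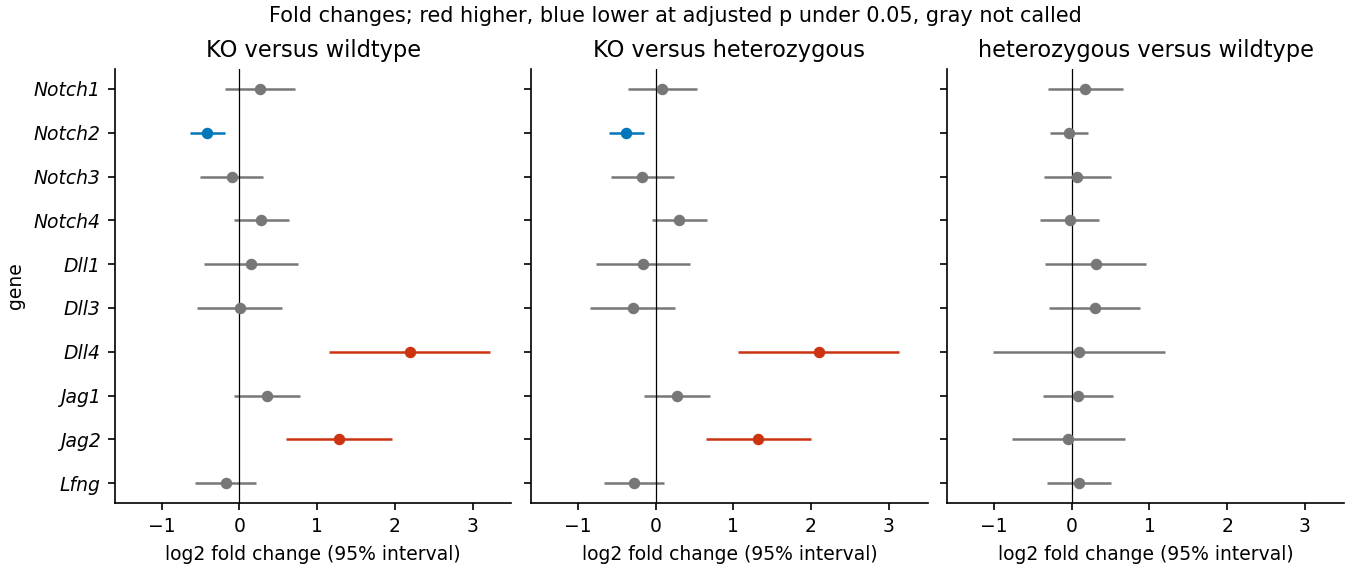
Log2 fold changes of the 10 members (points) with 95% intervals (bars) in KO versus wildtype, KO versus heterozygous and heterozygous versus wildtype embryos, red where higher, blue where lower and gray where not called at an adjusted p under 0.05. *Dll4* and *Jag2* lie to the right of 0 and *Notch2* to the left in both comparisons with KO embryos, which share those embryos, and all 10 intervals include 0 in the right panel.

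To set the members' levels side by side, the derived means were divided by the length of the merged exons of each gene. In wildtype embryos *Notch3* stood first with 753 normalized counts per kilobase, followed by *Notch2* with 393, *Notch1* with 319, *Dll1* with 281, *Lfng* with 266, *Dll3* with 233, *Jag1* with 208, *Jag2* with 123, *Notch4* with 76.0 and *Dll4* with 57.4. Of neighbours in this order, only *Notch3* and *Notch2* had intervals that did not overlap. The median over 19443 genes was 74.2 per kilobase, so that *Dll4* and *Notch4* were near the middle of all genes and *Notch3* was above 91.6% of them. The order in heterozygous embryos differed only in *Dll3* (286) and *Lfng* (285), which changed places without a difference beyond their intervals.

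In KO embryos *Notch3* was again first with 703 per kilobase and *Notch1* second with 383. *Dll1* (311), *Jag2* (298), *Notch2* (295), *Jag1* (267), *Dll4* (262), *Lfng* (235) and *Dll3* (233) followed, with overlapping intervals between neighbours, and *Notch4* was last with 92.5. *Dll4* had thus moved from a place next to *Notch4* to a level near that of *Jag1*, and *Jag2* to a level near that of *Dll1*. The level of *Notch1* depends on its length, since the longest transcript of *Notch1* is much shorter than its merged exons, and was 479 in wildtype and 574 in KO embryos per kilobase of that transcript. For *Notch2* these levels were 404 and 303, so that *Notch1* stood before *Notch2* in both genotypes with this length.

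*Dll4* and *Jag2* made up more of the ligands in KO embryos than in the other genotypes. The share of *Dll4* in the summed ligand level per kilobase was 6.37% in wildtype and 5.92% in heterozygous embryos, and it was 19.1% in KO embryos. *Jag2* made up 13.6%, 11.5% and 21.7%. *Dll1* made up 31.1%, 33.7% and 22.7%, while *Dll3* made up 25.8%, 27.6% and 17.0% and *Jag1* 23.1%, 21.3% and 19.5%. Summed over the 5 ligands, the level per kilobase was 902, 1035 and 1372 in the same order of genotypes, and over the 4 receptors it was 1542, 1610 and 1474. *Notch3* made up 48.9%, 49.2% and 47.7% of the receptor sum, *Notch2* 25.5%, 23.8% and 20.05%, *Notch1* 20.7%, 22.4% and 26.0%, and *Notch4* 4.93%, 4.64% and 6.28%. These shares come from derived means and were not tested. The order of the ligand shares in KO embryos depends on the length used, since *Dll1* stood first with merged exons but *Jag2* (25.8%) stood before *Dll1* (23.3%) with the longest transcripts. The order of *Notch1* and *Notch2* depends on it too. With the longest transcripts *Notch1* stood before *Notch2* in every genotype. The shares were 27.6% and 23.3% in wildtype, 29.6% and 21.6% in heterozygous and 33.8% and 17.8% in KO embryos.

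**Figure D3:**
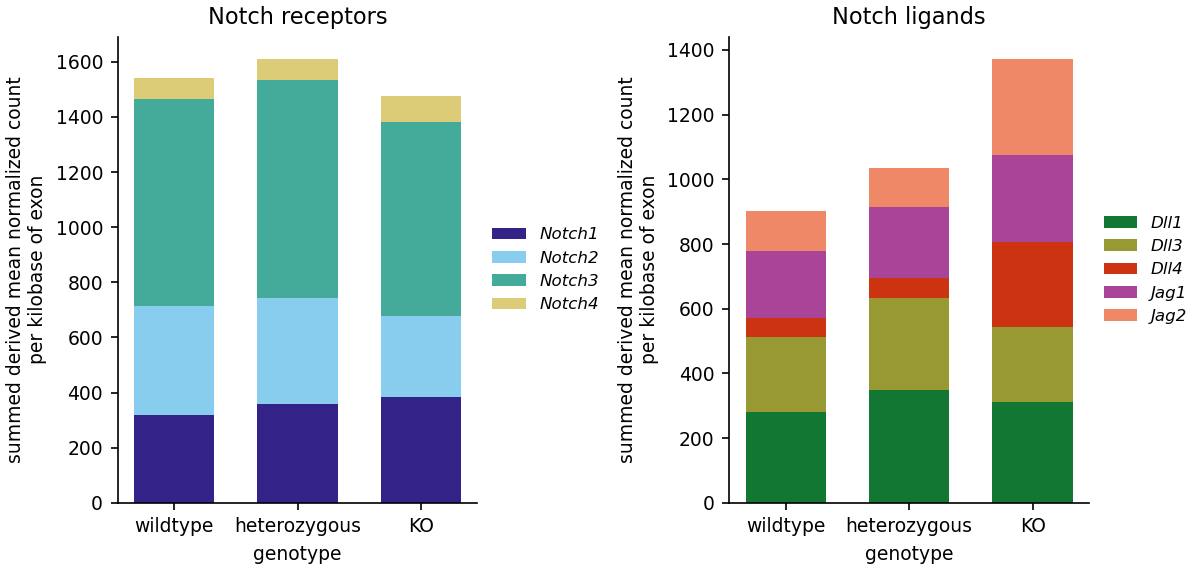
Derived mean normalized counts per kilobase of exon, stacked over the 4 Notch receptors and over the 5 ligands in wildtype, heterozygous and KO embryos. The ligand stack reaches 1372 in KO embryos against 902 in wildtype embryos, with taller blocks of *Dll4* and *Jag2*, while the receptor stacks lie between 1474 and 1610.

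Of 51 further genes of the pathway in 6 lists, 9 were called higher and 3 lower in the KO versus wildtype comparison, against the 15.6% and 10.2% of all tested genes given above. Among 7 target genes, 2 were higher. *Hey1*, a repressor of the endothelium and heart, had 970, 1026 and 1919 normalized counts in wildtype, heterozygous and KO embryos (log2 fold change 0.98, standard error 0.37, DESeq2 adjusted p = 0.0338). *Hes7*, a repressor of the segmentation clock, had 16.1, 14.6 and 55.3 (log2 fold change 1.78, standard error 0.68, DESeq2 adjusted p = 0.0408). After scaling by the summed counts both missed the threshold, with log2 fold changes of 0.74 for *Hey1* (adjusted p = 0.0932 on DESeq2 values) and 1.53 for *Hes7* (adjusted p = 0.0612 on DESeq2 values). The other 5 targets did not pass the test and had log2 fold changes of 0.38 for *Hes1* (DESeq2 adjusted p = 0.0766), 0.51 for *Hey2*, 0.14 for *Hes5* (-0.11 after that scaling), -0.45 for *Nrarp*, a feedback inhibitor, and -1.002 for *Heyl* (DESeq2 adjusted p = 0.198).

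Of 10 genes of receptor cleavage, 3 were higher, each encoding a subunit of gamma-secretase. *Psenen* had a log2 fold change of 0.96 (DESeq2 adjusted p = 0.00743), *Ncstn* of 0.38 (0.0422) and *Aph1a* of 0.39 (0.0481), and the last 2 lost their call after scaling by the summed counts. *Aph1a* was not called in KO versus heterozygous embryos (adjusted p = 0.123 on DESeq2 values). Its paralog *Aph1b*, another subunit, had -0.43 in KO versus wildtype embryos (DESeq2 adjusted p = 0.0604) and was called lower in KO versus heterozygous embryos (-0.48, adjusted p = 0.0331 on DESeq2 values). *Adam10*, the protease of the first ligand-dependent cut, had -0.39 (DESeq2 adjusted p = 0.0736) and was called lower after that scaling (-0.64). Of 13 genes of the nuclear complex and its corepressors, the coactivator *Maml3* was higher (log2 fold change 0.68) and the coactivator *Maml2* (-0.59) and the corepressor *Spen* (-0.41) were lower, with DESeq2 adjusted p of 0.0313, 0.0110 and 0.0366, and *Rbpj*, the DNA-binding partner of Notch, had -0.22 (0.479). *Maml3* too lost its call after the scaling.

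None of 5 glycosylation genes was called. The other fringe genes *Mfng* and *Rfng* had log2 fold changes of 0.18 and -0.13, which became -0.06 and -0.38 after scaling by the summed counts, the latter then called lower. Of 13 genes of ligand and receptor ubiquitination and endocytosis, 2 were higher, *Numb*, an inhibitor of Notch, with 0.56 (DESeq2 adjusted p = 0.0117) and the Deltex gene *Dtx3* with 0.93 (0.0428), neither of which was called after that scaling. Of 3 non-canonical ligands, *Dlk2* was higher (1.47, DESeq2 adjusted p = 0.0206) and *Dner*, a neuronal ligand, was lower (-0.999, DESeq2 adjusted p = 2.92e-05), with 881, 1023 and 441 normalized counts in wildtype, heterozygous and KO embryos. In KO versus heterozygous embryos 9 of the 51 genes were higher and 5 lower, and in heterozygous versus wildtype embryos 0 were called by DESeq2.

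**Figure D4:**
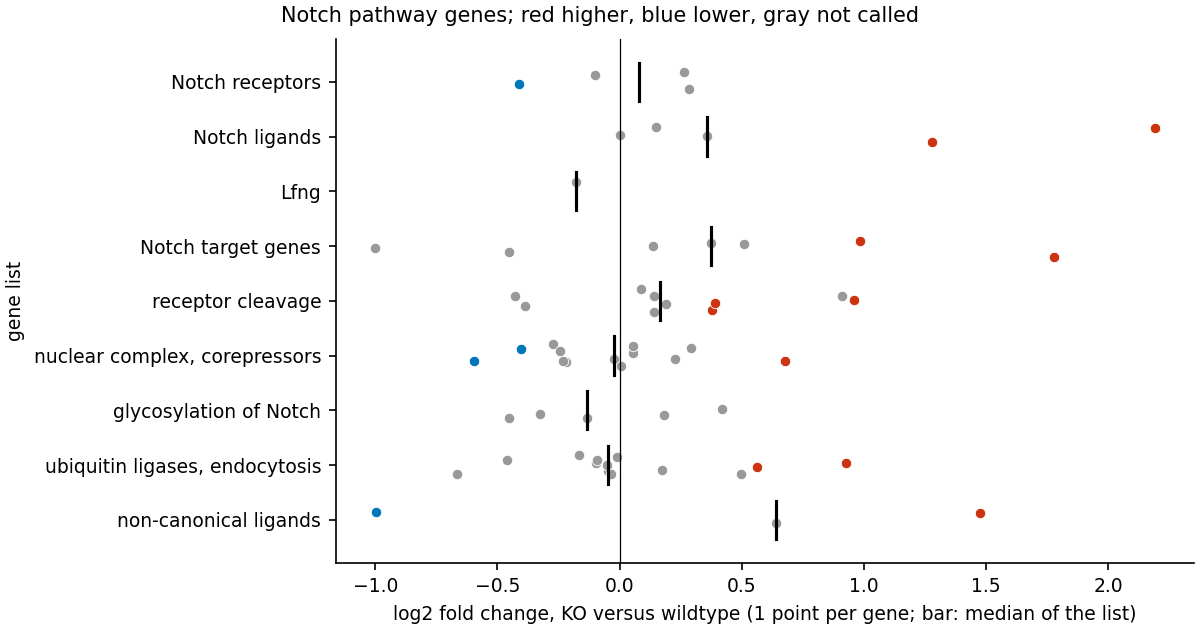
Log2 fold change in KO versus wildtype embryos of each Notch receptor, ligand and pathway gene (1 point per gene, with a bar for the median of the list), red where higher, blue where lower and gray where not called. *Dll4* (2.19) lies to the right of every pathway gene shown, and *Dner* (-0.999) is the called gene farthest to the left.

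Markers of several cell types moved in the same embryos, and their part in the members' values was not tested. Of 12 endothelial markers, 9 were higher in KO embryos, with a median log2 fold change of 1.24 and a summed level of 12998, 13498 and 30901 normalized counts in wildtype, heterozygous and KO embryos. *Pecam1* (1.62), *Kdr* (1.23) and *Robo4* (1.93) were among them. *Dll4* had a larger log2 fold change than all 12, but its 95% interval of 1.15 to 3.23 overlapped that of *Robo4*, 1.07 to 2.80. The level of *Dll4* per 1000 counts of these markers was 17.0, 17.5 and 32.7, while *Jag2* stood above 7 of the 12 and had 65.8, 61.5 and 67.2. Levels per 1000 marker counts have no intervals here, and differences between them were not tested. *Notch4*, which is also mainly endothelial, stood above only 2 of the 12, and its level per 1000 endothelial counts was 47.1, 44.7 and 24.1. Of 8 arterial genes, 2 were higher, *Sox17* (1.87) and *Unc5b* (0.54), and the list's median was -0.02. Of 9 mural genes, 3 were higher, among them *Tagln* (2.39) and *Acta2* (0.78), and *Cspg4* was lower, with 535, 475 and 268 normalized counts in the same order of genotypes. *Unc5b* and *Acta2* were not called after scaling by the summed counts.

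Of the 10 marker lists, those of trophoblast and of decidua and killer cells had the highest median log2 fold changes, 5.10 and 5.54. Of 12 measured trophoblast markers, 11 were higher, with a summed level that went from 1027 normalized counts in wildtype and 2463 in heterozygous embryos to 41380 in KO embryos, as with *Ascl2* (4.82), *Hand1* (2.99) and *Psg21* (7.36). One of the trophoblast markers, *Gcm1*, was under 1 count in wildtype and heterozygous embryos. Of 7 genes of the decidua and uterine killer cells, 5 were higher, such as *Gzmd* (5.68), *Gzmf* (5.51) and *Gzmg* (5.57), with a summed level of 12380, 1007 and 22005, of which the decidual gene *Prl8a2* made up 12165, 535 and 11709. Of 8 yolk sac genes, 2 were higher, *Amn* (3.03) and *Cubn* (3.31), with a summed level of 24473, 14810 and 52491. Most of that sum was *Afp*, with 19584.5, 11300.6 and 37441.5. *Afp* was not called (log2 fold change 0.93, DESeq2 adjusted p = 0.574). The called genes of these 3 lists were higher in KO embryos, as *Dll4* and *Jag2* were. So were 2721 of all 4508 called genes, and any link of these lists to the members was not tested.

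Of 10 genes of the presomitic mesoderm and segmentation, where *Dll1*, *Dll3* and *Lfng* act, 4 of the 8 tested were higher. Among them were *T* (2.24), *Fgf8* (1.88) and *Cyp26a1* (2.26). The tested genes that were not called had negative log2 fold changes, *Mesp2* (-0.61), *Ripply2* (-0.86), *Wnt3a* (-0.10) and *Dusp4* (-0.21). Of these, *Mesp2* and *Ripply2* had only 8.29 and 5.84 normalized counts in wildtype embryos. *Dll1*, *Dll3* and *Lfng* were not called. None of 10 neural progenitor markers was called, and their median log2 fold change was -0.49. Of 10 erythroid genes, 1 was higher, *Hbb-bh1* (1.08), and 1 lower, *Klf1* (-1.05). Of 7 macrophage genes, 1 was higher, *Cd68* (1.81), and 1 lower, *Cx3cr1* (-1.28).

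**Figure D5:**
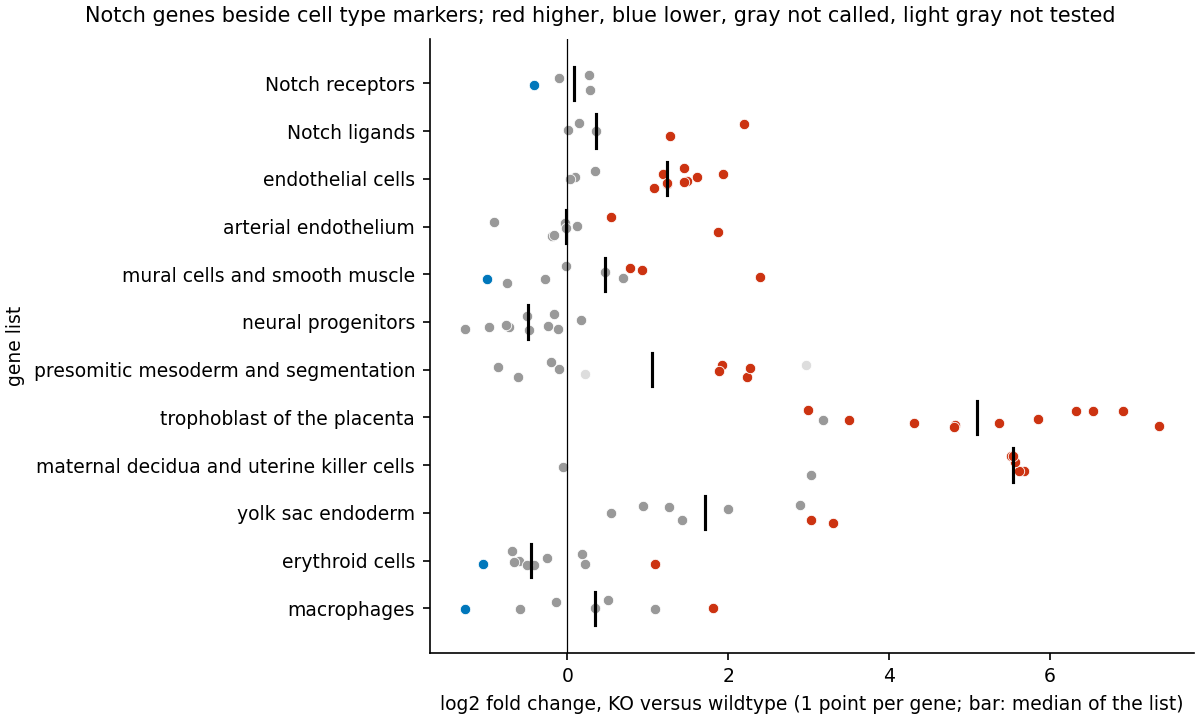
Log2 fold change in KO versus wildtype embryos of the Notch receptors and ligands beside the genes of 10 marker lists (1 point per gene, with a bar for the median of the list), red where higher, blue where lower, gray where not called and light gray where not tested. *Dll4* (2.19) lies to the right of the 12 endothelial markers, and all 12 measured trophoblast markers (11 of them called) and 6 of the 7 genes of the decidua and killer cells (5 of them called) lie farther to the right than *Dll4*.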

How the data were processed

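Per the labels and the study's methods, poly(A) RNA of whole embryos was made into libraries (with a directional kit per the methods, while the labels name the kit without that word), and the reads were trimmed with Trimmomatic 0.33, aligned to mm10 with HISAT2, counted per gene with HTSeq and tested with DESeq2 by the authors. The strand setting of the counting is not given in the sources used here. Both deposited tables hold, per gene, the mean normalized count over all embryos (a signal scaled by size factors), a log2 fold change with its standard error, the Wald statistic (a score) and a p-value with its adjusted p-value. These are the authors' own comparisons, and the directions were read as KO or heterozygous over wildtype. They were used because the tables hold no values per embryo, and no columns of values per embryo were left unmapped. The mean is the same in both tables, as from 1 fit over 10 embryos.

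From these, the mean of each genotype was derived by combining the overall mean with the fold changes of both tables. The dispersion implied by each standard error gave the intervals, the coefficients of variation and, with the shared wildtype part removed, the standard error of KO versus heterozygous embryos (normal Wald test, Benjamini-Hochberg over the 17477 genes with a KO adjusted p). Exon lengths came from GENCODE M21 (22770 of 22835 Ensembl identifiers matched), and promoter windows from RefSeq. The scripts were tested on simulated counts (python 3.11.15, numpy 2.4.6, scipy 1.17.1, pandas 2.3.3). Nothing in the labels ties embryos to litters, so whether litters differ between genotypes could not be checked. The p-values set differences between genotype means against 1 estimate of the spread between embryos, shared by all genotypes.

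The members, the 6 pathway lists and the 10 marker lists were chosen with earlier results of these data known. Named are all members, *Wwc2*, certain fixed targets and partners, the called pathway genes (up to 5 by size per direction and list) and up to 3 markers per list by adjusted p. *Aph1b*, *Prl8a2*, *Gcm1*, *Afp*, *Mesp2*, *Ripply2*, *Wnt3a*, *Dusp4* and the overlapping transcripts were named after their values were seen.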

Additional observations from a re-analysis of the deposited data

How the results depend on the processing

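Read against a t distribution with 7 degrees of freedom, 0 of 10 members were called in KO versus wildtype embryos (against 3), with adjusted p of 0.131 each for *Dll4*, *Jag2* and *Notch2* from the DESeq2 statistics, and 0 of 10 in KO versus heterozygous embryos. In KO versus wildtype embryos *Ascl2*, *Psg21* and *Tagln* had the same adjusted p of 0.131 with that t distribution, so this setting does not set the members apart. In KO versus heterozygous embryos, standard errors added in quadrature also gave 0 of 10 members, and 170 genes in all against 4780. That sum overstates the standard error, since both deposited comparisons share the wildtype embryos. Over all genes in KO versus wildtype embryos, 4508 were called, 6846 after scaling by summed counts, 1984 with an absolute log2 fold change above 1, 1771 at an adjusted p under 0.01 and 0 with the t distribution. In KO versus heterozygous embryos these counts were 4780, 7088, 2167, 2006 and 0, and in heterozygous versus wildtype embryos 2, 1, 1, 1 and 0. *Notch2* fell short of a log2 fold change of 1 in both comparisons and of an adjusted p of 0.01 in KO versus heterozygous embryos. Scaling by summed counts turned the sign of *Dll1* (-0.10), *Dll3* (-0.25), *Hes5* (-0.11) and *Mfng* (-0.0634) in KO versus wildtype embryos, of *Notch1* (-0.17) and *Mfng* (-0.25) in KO versus heterozygous embryos and of *Adam10* (0.00319) and *Ncstn* (0.00565) in heterozygous versus wildtype embryos, by its own construction. The filters on low counts changed no member's call. The standard deviation of the DESeq2 statistics over genes was 0.503 in heterozygous versus wildtype and 1.95 in KO versus wildtype embryos, and the standard errors are shared over all genotypes.

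No paired analysis was possible because the tables hold no values per embryo. For the same reason leaving out each embryo in turn was not run, and whether 1 embryo decides a value was not tested.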
